A study of Homo sapiens with 36 samples.

Results

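The genes described here were 10 components of the bone morphogenetic protein (BMP) pathway, taken by gene symbol from 27852 genes in the deposited RNA sequencing (RNA-seq) table of human prostate cancer (PCa) cell lines. They were the ligand genes BMP2, BMP4, BMP6 and BMP7, the receptor genes BMPR1A, BMPR1B and BMPR2, and the target genes ID1, ID2 and ID3. All 10 were found in the table. Of these, 8 reached 100 counts in at least 1 library and entered the tests, whereas BMP4 and BMP6 stayed below that level in every library and are given as levels only.

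The study grew osteoblastic PCa (BPCa) lines, C4-2 and C4-2B, and osteolytic PCa (LPCa) lines, DU145 and 22Rv1, alone or beside bone cells in a horizontal co-culture system in which a filter separated the wells, so that the partners shared medium but not contact. The partner was MG63, a human osteosarcoma line used as an osteoblast-like cell, or RAW264.7, a mouse monocytic line that can form osteoclasts under RANKL. RNA of the PCa cells was sequenced after 5 days. For each of the 4 lines there were 3 libraries of cells grown alone, 2 of cells beside MG63, 2 of cells grown alone under 50 ng/mL RANKL, and 2 of cells beside RAW264.7 under the same RANKL dose, which gave 36 libraries in 16 groups. The 4 are established lines, each a single cell population, and class and line are tied, since each class holds 2 lines. The labels do not say whether libraries of a group came from separate cultures, so p-values cover the spread between these libraries, which may be technical.

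BMPs are secreted dimers of the TGF-beta superfamily, named for their ability to induce bone. They bind a type I receptor, such as the products of BMPR1A and BMPR1B, together with a type II receptor, such as the product of BMPR2, and the type I kinase phosphorylates SMAD1, SMAD5 or SMAD9, which enters the nucleus with SMAD4. ID1, ID2 and ID3, which encode inhibitors of basic helix-loop-helix transcription factors, are among the classical direct targets of these SMADs, and BMP signalling between tumour and bone cells has long been studied in osteoblastic bone metastasis.

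Levels are given as CPM, the estimated counts of all transcripts of a gene for every 1e6 counts of the library, and these compare libraries for the same gene. A gene was called when the edgeR quasi-likelihood test gave a Benjamini-Hochberg adjusted p under 0.05 over all genes tested, and changes are log2 fold changes ± SE from that fit. Library totals ranged from 23932472 to 36719047 counts in mono-cultures without RANKL, from 10418452 to 15397563 with MG63, from 10097501 to 13373083 in mono-cultures with RANKL and from 9593426 to 15418211 with RAW264.7 and RANKL, so that the limit set by 3 counts was at most 0.125 CPM in the first of these and at most 0.313 CPM elsewhere. These limits cover counting error only.

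Several features of the libraries bear on the results below. The 2 DU145 libraries with MG63 differed far more than any other pair of replicates, with a mean chi-square per gene of 177.9 against 2.95 to 7.28 in the others. C4-2 and C4-2B, which share an origin, differed by more than 2-fold at an adjusted p under 0.05 in 204 genes in mono-culture, among the genes tested in every fit, and 193 of these (94.6%) kept the direction with MG63, 123 (60.3%) in mono-culture with RANKL and 142 (69.6%) with RAW264.7 and RANKL. Of 12 osteoblast-like markers 4 entered the MG63 test and none was called in any line (0 of 16 tests). Their summed level with MG63 and alone was 5.22 to 9.06 and 7.22 to 8.03 CPM in C4-2, 4.93 to 5.84 and 6.10 to 6.38 CPM in C4-2B, 12.5 to 19.2 and 10.9 to 12.4 CPM in DU145, and 14.2 to 14.9 and 13.3 to 17.0 CPM in 22Rv1. Over all cultures, mono-cultures included, COL1A1 was present in every line (1.83 to 6.68 CPM), TWIST2 in DU145 (6.05 to 11.6 CPM), and ALPL (2.61 to 8.66 CPM) and LUM (2.20 to 5.03 CPM) in 22Rv1. DCN reached 2.24 CPM. POSTN and THY1 were at most 0.275 and 0.242 CPM in any library.

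The 250 bases before the annotated starts of the ID genes, the pathway targets among the members, are shown from RefSeq on GRCh38.p14, 5' to 3' on the strand of the gene. The known BMP-responsive elements of ID1 lie further upstream than this window. Capitals mark the motifs CAGAC (a SMAD4-type box), CCAAT and TATAA found on either strand. These windows lie at chr20:31605039-31605288 (ID1, plus strand), chr2:8681806-8682055 (ID2, plus strand) and chr1:23559502-23559751 (ID3, minus strand).
ID1: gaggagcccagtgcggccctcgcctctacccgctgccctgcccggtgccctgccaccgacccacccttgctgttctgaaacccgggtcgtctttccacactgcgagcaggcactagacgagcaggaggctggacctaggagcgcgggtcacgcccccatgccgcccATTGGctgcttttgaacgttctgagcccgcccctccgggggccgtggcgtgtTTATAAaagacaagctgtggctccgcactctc
ID2: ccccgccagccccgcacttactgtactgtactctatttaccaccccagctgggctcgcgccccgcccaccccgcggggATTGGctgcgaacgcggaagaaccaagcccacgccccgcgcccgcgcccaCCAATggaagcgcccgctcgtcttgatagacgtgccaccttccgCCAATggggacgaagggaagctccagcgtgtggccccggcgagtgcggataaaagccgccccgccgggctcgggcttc
ID3: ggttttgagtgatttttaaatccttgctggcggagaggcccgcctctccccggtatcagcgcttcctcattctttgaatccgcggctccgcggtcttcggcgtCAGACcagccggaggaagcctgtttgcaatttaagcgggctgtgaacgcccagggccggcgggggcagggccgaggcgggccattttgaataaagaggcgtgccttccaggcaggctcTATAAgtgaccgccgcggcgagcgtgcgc
GGCGCC, a palindrome of BMP-responsive GC-rich elements, was searched as well and was not in any of these windows, while 16.4% of 35116 RefSeq promoters of the same length held it. CAGAC was found in ID3 alone, 147 bases before the start (38.0% of promoters). CCAAT lay 84 bases before the start of ID1 on the reverse strand and at 3 positions in ID2 (32.0% of promoters), and TATAA lay about 30 bases before the start of ID1, where hits on both strands overlapped, and of ID3 (18.9% of promoters). Their GC contents of 66.0%, 69.2% and 62.0% were all above the median promoter (58.0%).

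In mono-culture without RANKL, the ligand genes measured differed between 22Rv1, DU145 and the BPCa lines. BMP2, an inducer of bone formation, was measured at 9.52, 9.51 and 9.48 CPM in 22Rv1 and at or below 0.192 CPM in every library of the other lines, whatever the culture. BMP7, known for its part in kidney and skeletal development, was a BPCa transcript, with 5.33, 5.98 and 5.67 CPM in C4-2 and 9.54, 9.71 and 8.66 CPM in C4-2B, against at most 0.068 CPM in DU145 and 0.0287 CPM in 22Rv1. The C4-2B level was 1.70-fold that of C4-2 (log2 difference 0.76 ± 0.15, adjusted p = 0.00283) and the groups did not overlap. DU145 and 22Rv1 were both at or under the limit of 3 counts for BMP7 and could not be ordered (adjusted p = 0.147).

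BMP4 and BMP6 were low throughout. BMP4, a close relative of BMP2, stood at 1.29, 1.3 and 0.582 CPM in DU145 mono-cultures and at 1.13, 0.552 and 0.527 CPM in 22Rv1, with 0 to 0.46 CPM over all cultures of C4-2 and C4-2B. Its highest values were in DU145 with RANKL (2.34 and 2.46 CPM) and with RAW264.7 (3.41 and 2.95 CPM), none of them above 44 counts. BMP6, known for the control of hepcidin and iron, was 2.08, 2.37 and 1.88 CPM in 22Rv1 mono-cultures and 0.265 to 1.32 CPM in the other lines. Beside MG63 the 22Rv1 libraries reached 3.26 and 3.38 CPM of BMP6, above all other libraries.

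**Figure D1:**
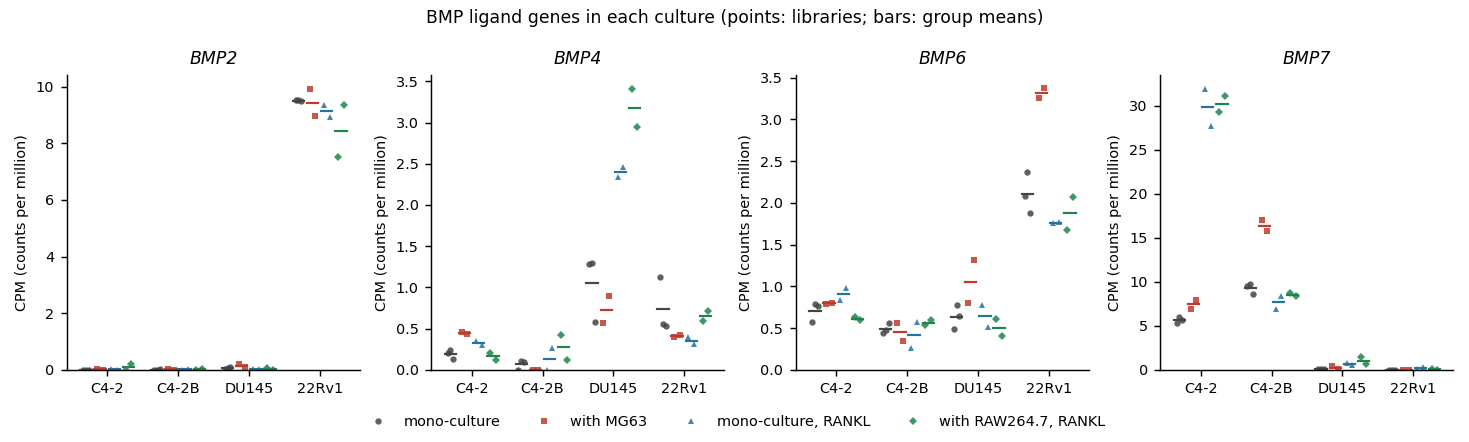
Levels of BMP2, BMP4, BMP6 and BMP7 in CPM (y axis) in the 4 lines and 4 cultures (x axis). Each point is 1 library and each bar the mean of its group. BMP2 is seen in 22Rv1 alone, at 7.51 to 9.93 CPM, and BMP7 in C4-2 and C4-2B.

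The receptor genes were measured in all lines, but the type I receptors had opposite profiles. BMPR1A was highest in DU145 (23.8, 24.8 and 23.8 CPM), followed by 22Rv1 (13.8, 13.9 and 15.8 CPM), with C4-2 (5.54, 4.70 and 5.16 CPM) and C4-2B (5.95, 5.09 and 5.13 CPM) below both and not separable from each other. BMPR1B was highest in C4-2B (26.9, 28.0 and 30.6 CPM), then C4-2 (14.9, 13.7 and 14.1 CPM) and 22Rv1 (8.14, 7.63 and 8.04 CPM), and was at most 1.02 CPM in every DU145 library. All neighbours in the BMPR1B order differed, C4-2B from C4-2 by 1.05 ± 0.11 (adjusted p = 6.76e-06). BMPR2, the type II receptor gene, was the most even member at 13.3 to 16.9 CPM in C4-2, C4-2B and DU145, which did not differ beyond their spread by this test, and at 8.79, 9.39 and 8.23 CPM in 22Rv1, below each of them (log2 difference from C4-2 −0.75 ± 0.14, adjusted p = 0.000191).

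BMPR1A has 2 transcripts in the table, ENST00000372037 of 11255 bases and ENST00000480152 of 421 bases. The short transcript took 42.8% and 38.6% of the BMPR1A counts in DU145 and 22Rv1 but 17.3% and 17.8% in C4-2 and C4-2B, so the size of the gaps between the lines rests in part on it. For ENST00000372037 alone, the mono-culture means were 13.3 ± 0.57 CPM in DU145 and 8.33 ± 0.12 CPM in 22Rv1 (SD, n = 3). C4-2 (4.37 ± 0.31 CPM) and C4-2B (4.52 ± 0.24 CPM) again lay below both.

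**Figure D2:**
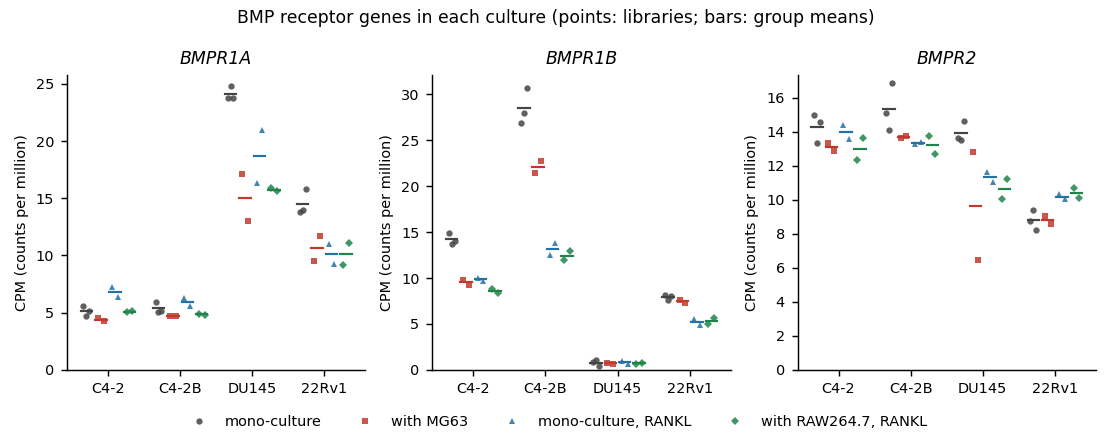
Levels of BMPR1A, BMPR1B and BMPR2 in CPM (y axis) by line and culture (x axis), with 1 point per library and a bar at each group mean. BMPR1A is highest in DU145 (13.0 to 24.8 CPM), and in mono-culture without RANKL BMPR1B is highest in C4-2B (26.9 to 30.6 CPM).

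The ID genes were the most abundant members by mean CPM in every line, although in C4-2B mono-culture ID2 (31.1 CPM) was close to BMPR1B (28.5 CPM). In 22Rv1 mono-cultures ID3 stood at 469, 463 and 458 CPM, ID2 at 267, 266 and 266 CPM and ID1 at 242, 260 and 250 CPM. DU145 had 284, 270 and 282 CPM of ID1, above every 22Rv1 mono-culture but not called (adjusted p = 0.22). It was called in 2 of 20 fits with 1 library left out. DU145 had less ID3 (169, 161 and 174 CPM) and ID2 (89.5, 82.6 and 85.9 CPM). C4-2 held 98.5, 92.8 and 94.5 CPM of ID1, 76.7, 73.1 and 73.9 CPM of ID3 and 33.8, 30.3 and 28.5 CPM of ID2. C4-2B held 80.0, 88.1 and 80.4 CPM of ID1, 57.8, 67.1 and 58.4 CPM of ID3 and 30.1, 33.0 and 30.3 CPM of ID2. In both osteoblastic lines all 3 genes were below every DU145 and 22Rv1 mono-culture. C4-2B was below C4-2 in ID3 (−0.24 ± 0.07, adjusted p = 0.0385, though called in only 8 of 20 fits with 1 library left out), while ID1 and ID2 did not differ between them beyond their spread (adjusted p = 0.504 and 0.852). Per transcript length, as mean TPM (a length-corrected level on a similar scale), ID3 was first in 22Rv1 (476 TPM, with ID2 at 256 and ID1 at 241), whereas ID1 was first in DU145 (281 TPM), C4-2 (93.9 TPM) and C4-2B (80.8 TPM), and no ligand exceeded a mean of 7.35 TPM in these mono-cultures.

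Over the 6 pairs of lines, 39 of the 48 member comparisons tested were called (of 60 for all 10 members), where 65.9% of all tests were. The share of all genes called was 13.6% for C4-2B against C4-2, 78.3% for DU145 and 72.0% for 22Rv1 against C4-2, 79.0% and 72.5% against C4-2B, and 79.6% for 22Rv1 against DU145. Differences between lines were thus common among all genes.

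**Figure D3:**
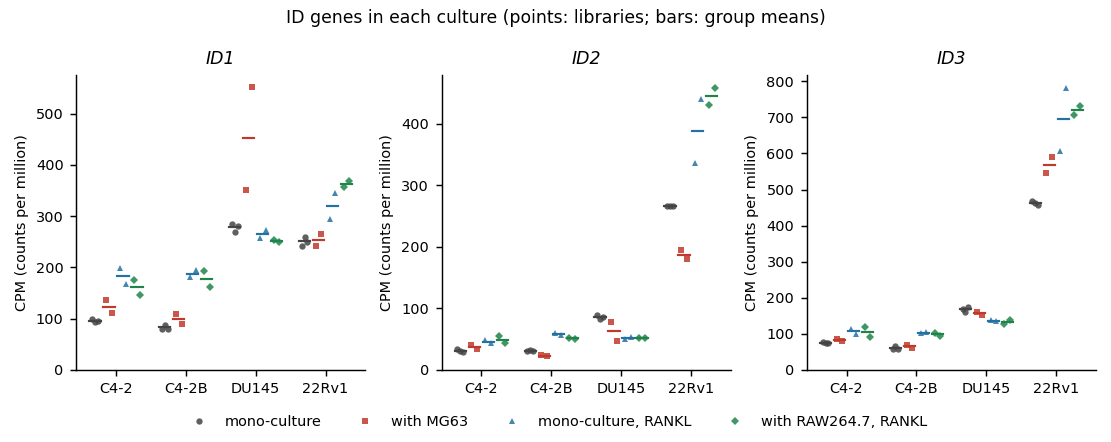
Levels of ID1, ID2 and ID3 in CPM (y axis) by line and culture (x axis), 1 point per library and a bar at each group mean. In C4-2 and C4-2B the libraries with RANKL lie above those without for all 3 genes, and in DU145 the ID2 libraries with RANKL (49.6 to 52.7 CPM) lie below the mono-cultures without it (82.6 to 89.5 CPM).

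Co-culture with MG63 asks which PCa genes respond to products of osteoblast-like cells that can pass the filter. The libraries with MG63 had fewer counts than every mono-culture they were compared with, so that MG63, depth and any other difference between these sets of libraries cannot be told apart. Against mono-culture, ID1 rose in C4-2 and DU145, ID3 rose in 22Rv1, BMP7 rose in C4-2B, and receptor genes fell, BMPR1B in C4-2 and BMPR1A in DU145. With a call for BMP7 in DU145 at a handful of counts, 7 of the 32 member and line combinations tested were called (of 40 in all). Of these, 5 were upward and 2 downward, where 17.1% of all tests were called. By line the members called were 2 in C4-2 (10.1% of all genes), 1 in C4-2B (7.41%), 3 in DU145 (30.5%) and 1 in 22Rv1 (20.4%). With library totals in place of TMM scaling, under which the median change of all genes was −0.12, −0.06, −0.13 and −0.11 in C4-2, C4-2B, DU145 and 22Rv1, 4 members were called upward and 6 downward. By the rule of the study, over 2-fold with a p under 0.05, 1 combination was called (BMP7 in DU145), where 3.04% of all tests were. Only the cutoffs are those of the study, and the p is the unadjusted p of edgeR.

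ID1 was 136 and 111 CPM in C4-2 with MG63, above all 3 mono-cultures, a rise of 0.48 ± 0.14 (1.40-fold, adjusted p = 0.0367). The C4-2 call was lost without any 1 of the 5 C4-2 libraries (adjusted p = 0.0606 to 0.344), C4-2B mono-culture replicate 1 (adjusted p = 0.051) or DU145 mono-culture replicate 3 (adjusted p = 0.0514). In DU145 it was 352 and 553 CPM against 270 to 284 CPM (0.77 ± 0.14, adjusted p = 0.00108), and without replicate 2, the higher library, the change was 0.42 and still called (adjusted p = 0.00915). The osteoblast-like markers summed to 12.5 to 19.2 CPM in these DU145 libraries, against 10.9 to 12.4 CPM alone, and their part in the DU145 results was not tested. In C4-2B the values were 108 and 89.7 CPM, again above the mono-cultures, with a log2 change of 0.32 ± 0.14 that did not pass (adjusted p = 0.202), and in 22Rv1 they were 241 and 265.3 CPM, on either side of the mono-cultures (242 to 260 CPM). Averaged over the lines of a class, ID1 rose in BPCa by 0.40 ± 0.10 (adjusted p = 0.00888), a call lost without replicate 1 with MG63 of C4-2 or of C4-2B (adjusted p up to 0.0673). In LPCa it rose by 0.45 ± 0.10 (adjusted p = 0.00246), or 0.27 without DU145 with MG63 replicate 2.

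ID3 rose in 22Rv1 from 458 to 469 CPM alone to 547 and 590 CPM beside MG63 (0.41 ± 0.08, adjusted p = 0.00195), although the call was lost without replicate 2 with MG63 (0.32, adjusted p = 0.0581). It was 85.5 and 80.4 CPM in C4-2 (0.26 ± 0.08, adjusted p = 0.0539), 69.6 and 59.8 CPM in C4-2B (0.14 ± 0.08, adjusted p = 0.357) and 160 and 152 CPM in DU145 (−0.03 ± 0.08, adjusted p = 0.791). As class averages ID3 was called in BPCa (0.20 ± 0.06, adjusted p = 0.0218) and LPCa (0.19 ± 0.06, adjusted p = 0.0185), but with library totals neither was (0.12, adjusted p = 0.123, and 0.10, adjusted p = 0.159). With 1 library left out these were called in 15 and 19 of 20 fits, with adjusted p up to 0.154 without C4-2B with MG63 replicate 1 and 0.106 without 22Rv1 with MG63 replicate 2.

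ID2 was 194 and 180 CPM in 22Rv1 with MG63, below all mono-cultures (−0.40 ± 0.14, adjusted p = 0.0554), 77.5 and 47.3 CPM in DU145 (−0.39 ± 0.14, adjusted p = 0.0536), 23.7 and 22.7 CPM in C4-2B (−0.36 ± 0.15, adjusted p = 0.179) and 41.2 and 33.4 CPM in C4-2 (0.38 ± 0.15, adjusted p = 0.121). No single line was called with all libraries, whereas C4-2, C4-2B and 22Rv1 were called without the DU145 libraries with MG63, as given below. The LPCa average fell by 0.39 on the log2 scale (SE 0.10, adjusted p = 0.00732). It was −0.60 and −0.23 without DU145 with MG63 replicate 1 and 2, both called, and DU145 itself was −0.80 (adjusted p = 8.22e-06) and −0.07 without them. The BPCa average was 0.01 ± 0.11 (adjusted p = 0.979), its lines having opposite signs.

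Among the ligands, BMP7 rose in C4-2B from 8.66 to 9.71 CPM alone to 17.0 and 15.7 CPM with MG63 (0.88 ± 0.16, 1.84-fold, adjusted p = 0.00452), with no overlap. It was 6.96 and 7.97 CPM in C4-2, likewise above all its mono-cultures (0.51 ± 0.18, adjusted p = 0.081), and the BPCa average rose by 0.70 ± 0.12 (adjusted p = 0.000853). The C4-2B call was lost without replicate 1 with MG63 (0.81, adjusted p = 0.0764). The call in DU145 (adjusted p = 0.0325) rested on 4.89 and 0.949 estimated counts with MG63 against 1.18 to 2.30 alone, too few for a fold, and was lost without replicate 1 with MG63 (adjusted p = 0.666) or replicate 2 alone (adjusted p = 0.0721). BMP2 in 22Rv1 was 9.93 and 8.95 CPM, around its mono-culture level.

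Of the receptor genes, 2 of 12 combinations with a line were called, both downward, where 17.1% of all tests were called. BMPR1B was 9.78 and 9.24 CPM in C4-2 with MG63 against 13.7 to 14.9 CPM alone (−0.47 ± 0.14, adjusted p = 0.0373, a call lost without any 1 of the 5 C4-2 libraries or the 3 C4-2B mono-cultures, at 0.0509 to 0.235) and 21.5 and 22.7 CPM in C4-2B against 26.9 to 30.6 CPM (−0.30 ± 0.12, adjusted p = 0.167), and the BPCa average fell by 0.39 (SE 0.09, adjusted p = 0.0072). BMPR1A in DU145 fell by 0.60 ± 0.13 (adjusted p = 0.00279) to 17.1 and 13.0 CPM, and the LPCa average fell by 0.48 (SE 0.09, adjusted p = 0.000998), with 9.49 and 11.7 CPM in 22Rv1. Most of the difference in DU145 lay in the short transcript ENST00000480152, at 10.8 ± 0.92 CPM alone and 3.83 ± 1.25 CPM with MG63, whereas ENST00000372037 was 13.3 ± 0.57 and 11.2 ± 1.67 CPM (SD, n = 3 and 2). BMPR2 was not called in any line with all libraries, and in DU145 the MG63 libraries were 12.8 and 6.44 CPM (−0.44 ± 0.17, adjusted p = 0.0681), a value that was −1.05 without replicate 1 (adjusted p = 5.6e-06) and −0.04 without replicate 2.

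The study set BPCa against LPCa lines. None of the 8 members tested was called for a class difference in the response to MG63 by edgeR (9.85% of all genes were), with 2 at an unadjusted p under 0.05, BMPR1A (0.36, adjusted p = 0.11) and ID2 (0.40 ± 0.14, adjusted p = 0.09), and 1 called by DESeq2 (ID2). Without DU145 with MG63 replicate 1, however, 3 were called, ID2 (0.61, adjusted p = 3.97e-05), BMPR2 (0.41, adjusted p = 0.00398) and BMPR1A (0.47, adjusted p = 0.00811). Against mono-cultures with RANKL 2 were called, ID1 and ID3. The shares of genes called for the class averages themselves were 19.6% in BPCa and 35.1% in LPCa. Within classes, no member was called for a difference in response between C4-2B and C4-2 with all libraries (0.179% of genes called). ID2 was the nearest (−0.74 ± 0.21, adjusted p = 0.372), and without either DU145 library with MG63, in 2 of 20 fits with 1 library left out, its difference was called (adjusted p down to 0.00769). Between the LPCa lines, DU145 responded more than 22Rv1 in ID1 (0.64 ± 0.19, adjusted p = 0.0452) and less in ID3 (−0.44 ± 0.11, adjusted p = 0.0233) where 10.4% of genes differed. With 1 library left out the ID1 difference was 0.29 to 0.93 and was called in 5 of 20 fits, and that of ID3 in 17 of 20.

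The MG63 calls depended on the control and on the DU145 libraries. Against mono-cultures with RANKL instead of those without, the sign of ID1 turned in C4-2 (−0.55) and C4-2B (−0.95), that of BMP7 turned in C4-2 (−1.98), and that of ID3 turned in 22Rv1 (−0.22). When both DU145 libraries with MG63 were left out of the fit, a choice made after the data had been seen, the calls in C4-2, C4-2B and 22Rv1 went from 4 to 12, where 26.9% of all tests were called. The added ones were BMP7 (adjusted p = 0.0173), ID2 (0.38, adjusted p = 0.00346) and ID3 (adjusted p = 0.0173) in C4-2, BMPR1B (adjusted p = 0.0499), ID1 (adjusted p = 0.0154) and ID2 (−0.36, adjusted p = 0.0099) in C4-2B, and BMPR1A (adjusted p = 0.0187) and ID2 (−0.40, adjusted p = 0.000238) in 22Rv1. In that fit ID2 was thus called upward in C4-2 and downward in C4-2B and 22Rv1.

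**Figure D4:**
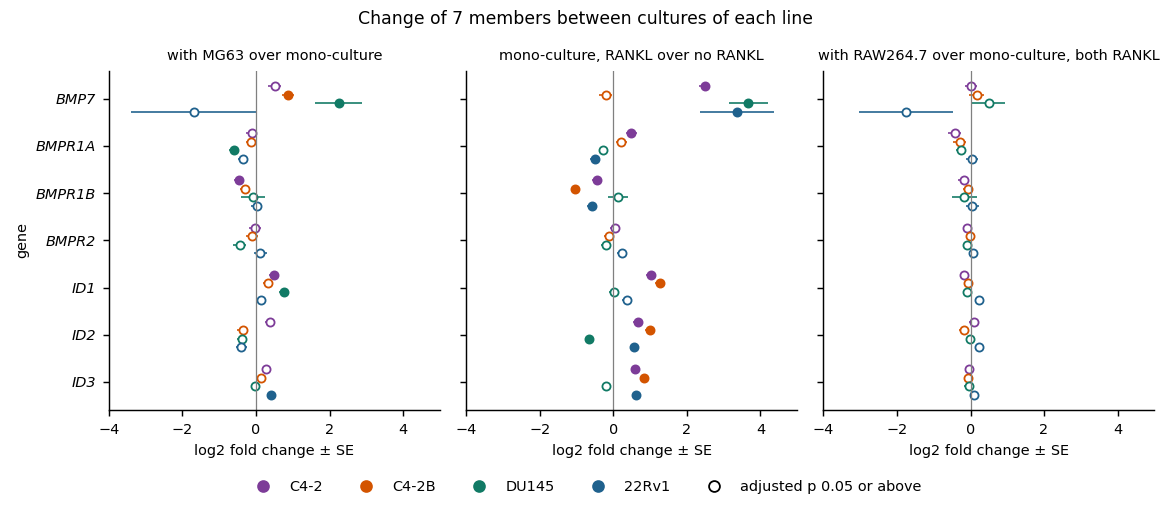
Log2 fold change ± SE (x axis) of each member tested except BMP2, by line. The panels show MG63 co-culture against mono-culture, mono-culture with against without RANKL, and RAW264.7 co-culture against mono-culture, both with RANKL. Filled points were called at an adjusted p under 0.05: 7 for MG63, 17 for RANKL and 0 for RAW264.7.

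Mono-cultures with and without RANKL were compared next, since RANKL was added to the control of the RAW264.7 co-cultures. The ID genes were higher with RANKL in C4-2 and C4-2B (all 3) and in 22Rv1 (ID2 and ID3), ID2 was lower in DU145, BMP7 rose 5.59-fold in C4-2, and BMPR1B fell in C4-2, C4-2B and 22Rv1. In all, 17 of the 32 combinations tested were called (of 40 in all), 12 upward and 5 downward, where 20.7% of all tests were. By the rule of the study 6 were called (3.77% of all tests). By line these were 6 members in C4-2 (18.3% of all genes), 4 in C4-2B (14.4%), 2 in DU145 (32.5%) and 5 in 22Rv1 (17.7%). The libraries with RANKL were likewise the shallower ones, so that RANKL, depth and any other difference between the sets of cultures cannot be told apart. Whether the labels C4-2 and C4-2B mark the same populations with and without RANKL, given the low agreement between the sets described above, cannot be told from these values, and this bears on every RANKL change in these lines.

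ID1 was 198 and 168 CPM in C4-2 with RANKL, 1.03 ± 0.14 above mono-culture without it (2.04-fold, adjusted p = 6.35e-06), and 181 and 195 CPM in C4-2B, a rise of 1.26 ± 0.14 (2.40-fold, adjusted p = 4.46e-07). In 22Rv1 it was 295 and 344 CPM (0.38 ± 0.13, adjusted p = 0.0532), and in DU145 257 and 272 CPM, with a change of 0.03 ± 0.14 (adjusted p = 0.9). The libraries with and without RANKL did not overlap in C4-2, C4-2B or 22Rv1.

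ID2 rose by 0.66 ± 0.14 in C4-2 (49.0 and 42.9 CPM, adjusted p = 0.00104), by 0.99 ± 0.13 in C4-2B (59.7 and 57.1 CPM, adjusted p = 1.01e-05) and by 0.57 ± 0.12 in 22Rv1 (337 and 440 CPM, adjusted p = 0.00163). In DU145 it fell by 0.65 (SE 0.13, adjusted p = 0.000528) to 49.6 and 52.7 CPM. Without replicate 2 with RANKL, the 22Rv1 value was 0.37 and not called (adjusted p = 0.121). DU145 and 22Rv1 differed in this response by −1.22 ± 0.18 (adjusted p = 2.53e-05), where 20.6% of genes differed.

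ID3 rose by 0.60 ± 0.10 in C4-2 (113 and 101 CPM, adjusted p = 0.000156), 0.84 ± 0.10 in C4-2B (101 and 105 CPM, adjusted p = 2.89e-06) and 0.61 ± 0.10 in 22Rv1 (606 and 783 CPM, adjusted p = 7.71e-05). In DU145 it was 137 and 135 CPM, −0.20 ± 0.10 (adjusted p = 0.133). With library totals, under which the DU145 median of all genes was −0.11, the DU145 value was −0.31 and was called (adjusted p = 0.0186).

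BMP7 had the largest change among the members expressed above 1 CPM. In C4-2 it went from 5.33 to 5.98 CPM without RANKL to 31.9 and 27.7 CPM with it (2.48 ± 0.16, 5.59-fold, adjusted p = 9.69e-11). In C4-2B it was 6.89 and 8.44 CPM, just below its mono-cultures (−0.20 ± 0.17, adjusted p = 0.504), and the responses of these lines differed by −2.68 ± 0.24 (adjusted p = 5.04e-08), where 5.36% of genes differed. C4-2 and C4-2B thus stood in reverse order for BMP7: C4-2B was above C4-2 without RANKL and with MG63 (1.13 ± 0.19, adjusted p = 0.00157), and below it in mono-culture with RANKL (−1.92 ± 0.17, adjusted p = 3.6e-05) and with RAW264.7 and RANKL (−1.77 ± 0.17, adjusted p = 5.78e-05), at shares of 8.16%, 6.5% and 6.4% of genes called. For BMPR1B, C4-2B was above C4-2 with MG63 (1.22 ± 0.15, adjusted p = 6.7e-05) and with RAW264.7 (0.58 ± 0.14, adjusted p = 0.0261, a call lost without any 1 of the 4 libraries concerned), and the difference was 0.47 in mono-culture with RANKL (adjusted p = 0.0633). With MG63, C4-2B was below C4-2 in ID2 (−0.68 ± 0.17, adjusted p = 0.0185) and ID3 (−0.36 ± 0.09, adjusted p = 0.023), each called in 17 of 20 fits with 1 library left out. The doubt over the labels of these lines between the sets of cultures bears on the 5.59-fold change of BMP7.

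BMP7 counts in C4-2 came mainly from 3 of its 9 transcripts, each higher with RANKL. ENST00000395864, of 1746 bases, went from 3.08 ± 0.37 to 13.5 ± 0.52 CPM, ENST00000460817, a processed transcript of 716 bases, from 1.61 ± 0.11 to 11.9 ± 1.58 CPM, and ENST00000395863, of 4013 bases, from 0.975 ± 0.070 to 3.62 ± 0.93 CPM (SD, n = 3 and 2). In the LPCa lines BMP7 was called upward as well, in DU145 from 1.18 to 2.30 estimated counts without RANKL to 10.6 and 7.13 with it (adjusted p = 1.06e-05), and in 22Rv1 where no library held more than 2.96 counts (adjusted p = 0.0291), so that no fold is given. The 22Rv1 call was lost without replicate 2 with RANKL (adjusted p = 0.453) or mono-culture replicate 1 (adjusted p = 0.0797) or 2 (adjusted p = 0.0727).

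Of the receptor genes, BMPR1B fell by 1.03 in C4-2B (SE 0.12, adjusted p = 1.31e-06), from 26.9 to 30.6 CPM to 12.6 and 13.8 CPM. It fell by 0.44 in C4-2 (SE 0.12, 10.0 and 9.69 CPM, adjusted p = 0.0134) and by 0.58 in 22Rv1 (SE 0.14, 5.53 and 4.89 CPM, adjusted p = 0.00626). The C4-2 call was lost without either of its libraries with RANKL (adjusted p = 0.0792 and 0.115) and the 22Rv1 call without replicate 2 with RANKL (adjusted p = 0.13). BMPR1A rose in C4-2 to 7.27 and 6.38 CPM (0.49 ± 0.14, adjusted p = 0.0145) and fell in 22Rv1 to 11.0 and 9.29 CPM (−0.50 ± 0.13, adjusted p = 0.00823), calls that were lost without replicate 1 of C4-2 with RANKL (adjusted p = 0.23) or replicate 2 of its mono-cultures (adjusted p = 0.0525), and without replicate 2 of 22Rv1 with RANKL (adjusted p = 0.192). In DU145 BMPR1A was 16.4 and 21.0 CPM (−0.27, adjusted p = 0.0816). In 22Rv1 the short transcript was 6.19 ± 0.98 CPM without and 2.90 ± 1.34 CPM with RANKL, against 8.33 ± 0.12 and 7.24 ± 0.13 CPM for the long one (SD, n = 3 and 2). BMPR2 was not called in any line.

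The average response to RANKL differed between the BPCa and the LPCa lines in 5 members, where 16.5% of genes differed. The p-values cover the spread between libraries and not that between lines of a class. BPCa minus LPCa was 0.94 ± 0.14 for ID1 (adjusted p = 2.1e-05), 0.86 ± 0.13 for ID2 (adjusted p = 4.12e-05), 0.52 ± 0.10 for ID3 (adjusted p = 0.000806) and 0.74 ± 0.13 for BMPR1A (adjusted p = 0.000276), and that of BMP7 (adjusted p = 0.00551) rested on the LPCa libraries with few counts and was lost without 22Rv1 with RANKL replicate 2 (adjusted p = 0.216). The LPCa lines themselves differed in ID2, as given above, and in ID3 (DU145 minus 22Rv1 −0.81 ± 0.14, adjusted p = 0.000175). ID2 and ID3 also rose in 22Rv1, by about as much as in C4-2 and less than in C4-2B. In DU145 ID2 fell and ID3 was not called. With the C4-2 and C4-2B libraries with RANKL left out, again chosen after seeing the data, DU145 and 22Rv1 had 8 calls against 7 (23.2% of all tests), ID1 in 22Rv1 being added (0.38 ± 0.12, adjusted p = 0.0413).

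**Figure D5:**
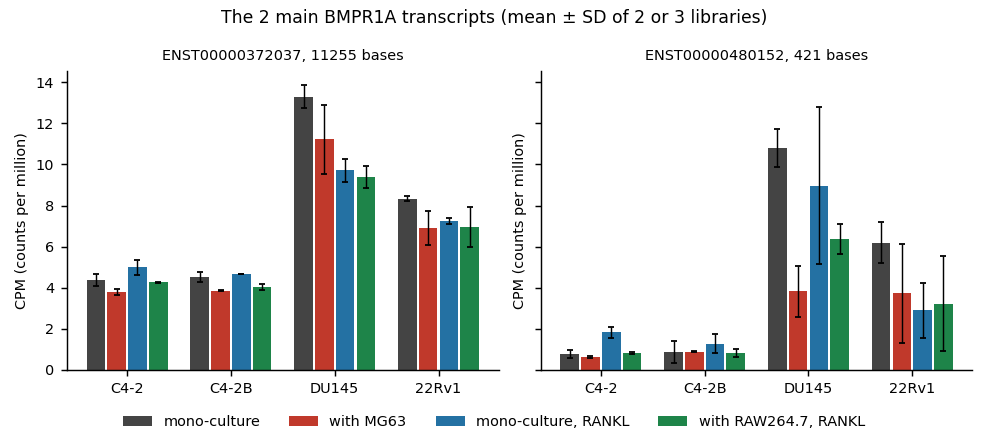
Levels of the 2 BMPR1A transcripts in CPM (y axis) by line and culture (x axis). Bars are group means and whiskers the SD of 2 or 3 libraries. In single libraries the 421-base transcript reaches 11.7 CPM in DU145.

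Co-culture with RAW264.7, set against mono-culture with the same RANKL dose, asks for effects of products of osteoclast precursors that can pass the filter. No member was called by edgeR in any line (0 of 28 tests of 7 members, BMP2 not having reached 100 counts in these libraries) or by DESeq2, and 3 were under an unadjusted p of 0.05: BMPR1A in C4-2 (−0.42 ± 0.18), and ID1 (0.22 ± 0.10) and ID2 (0.23 ± 0.10) in 22Rv1, the last at 432 and 458 CPM against 337 and 440 CPM. Few genes were called at all, 0.0174% in C4-2, 0.139% in C4-2B, 0.026% in DU145 and 0.00868% in 22Rv1 (0.0477% of all tests), and 0.0781% differed between classes. For the ID genes the log2 changes lay between −0.19 and 0.23 with SEs of 0.10 to 0.13. BMP7 in C4-2 was 29.3 and 31.1 CPM with RAW264.7, at the level of mono-culture with RANKL (0.01 ± 0.15), and BMP2 in 22Rv1 was 7.51 and 9.36 CPM against 9.34 and 8.93 CPM.

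Other genes of the pathway, from lists chosen with earlier results known, showed where the members stood among their partners. Counts are of combinations of a gene and a line, to be read against 17.1% of all tests called with MG63 and 20.7% with RANKL. Of 14 further BMP and GDF ligands 5 were tested, and of 20 combinations 1 was called upward and 5 downward with MG63, and 1 and 4 with RANKL. BMP5 was a 22Rv1 transcript like BMP2, at 15.6 to 16.9 CPM alone and 11.2 to 13.7 CPM with MG63, but it was 0.317 to 0.433 CPM with RANKL (−5.55 ± 0.38, adjusted p = 3.3e-07) and 0.228 to 0.252 CPM with RAW264.7 and RANKL, while BMP2 kept its level. GDF15, a stress-responsive ligand, fell in C4-2B with MG63 (−0.68 ± 0.14, adjusted p = 0.00652) and with RANKL (−1.19 ± 0.15, adjusted p = 3.57e-06).

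Of 10 other receptors and co-receptors 7 were tested (of 28 combinations 2 upward and 2 downward with MG63, 5 and 6 with RANKL). TGFBR3, or betaglycan, a co-receptor that also binds BMPs, rose with MG63 in C4-2 (1.07 ± 0.14, adjusted p = 0.000154) and C4-2B (0.69 ± 0.14, adjusted p = 0.0063), from 4.46 to 5.14 CPM to 8.16 and 10.9 CPM in C4-2. All 8 SMAD and SMURF genes were tested (of 32 combinations 1 upward and 4 downward with MG63, 5 and 1 with RANKL). SMAD9, a receptor SMAD of the BMP branch, was 23.6 to 26.2 CPM in 22Rv1 alone and 14.6 and 16 CPM with MG63 (−0.59 ± 0.08, adjusted p = 0.000124), and rose with RANKL in C4-2 (0.80 ± 0.14, adjusted p = 0.000144) and C4-2B (0.54 ± 0.13, adjusted p = 0.00729). SMAD7, a feedback inhibitor, fell with MG63 in 22Rv1 (−0.77 ± 0.13, adjusted p = 0.00082).

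Of 16 antagonists, 7 were tested (of 28 combinations 5 upward and 2 downward with MG63, 2 and 6 with RANKL). BAMBI, a pseudoreceptor that dampens TGF-beta family signals, rose with MG63 in C4-2 from 64.1 to 68.2 CPM to 106 and 112 CPM (0.85 ± 0.08, adjusted p = 6.7e-06), in DU145 (0.96 ± 0.14, adjusted p = 0.000311) and in 22Rv1 (0.91 ± 0.11, adjusted p = 4.56e-05). NOG, which encodes the secreted BMP antagonist noggin, was a DU145 transcript at 8.60 to 9.84 CPM and fell with RANKL to 3.88 and 4.5 CPM (−1.05 ± 0.30, adjusted p = 0.00987). Of 12 other target genes 10 were tested, and of 40 combinations 8 were called upward and 2 downward with MG63, and 13 and 2 with RANKL. ATOH8 rose with RANKL in C4-2 (1.09 ± 0.26, adjusted p = 0.00429) and C4-2B (1.09 ± 0.26, adjusted p = 0.00536) and fell in DU145 (−1.37 ± 0.24, adjusted p = 8.29e-05). HES1 rose with MG63 in C4-2 (0.63 ± 0.08, adjusted p = 6.46e-05) and C4-2B (0.33 ± 0.08, adjusted p = 0.0143). No gene of these lists was called with RAW264.7.

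The genes whose levels followed those of a member most closely were sought among 13454 genes as a description, over 16 group means of log2(CPM + 1) that share libraries and lines. They were UNC13A for BMP2 (Pearson r = 0.999), AIDA for BMP7 (0.978), KLHDC2 for BMPR1A (0.98), FRMPD2 for BMPR1B (0.984) and LRRC46 for BMPR2 (0.961). After the mean of each line was subtracted, the nearest were KNOP1 (0.896), CENPB (0.892) and ATP6V0D1 (0.89) for ID1, H2AC18 (0.946), RAD51C (0.927) and ZDHHC7 (0.9) for ID2, and C2CD2L (0.903), RAD51C (0.896) and H3C10 (0.893) for ID3. RAD51C was thus near both ID2 and ID3.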

How the data were processed

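RNA-seq libraries were made from poly(A) RNA of PCa cells with a strand-specific kit and sequenced on an MGI DNBSEQ-G400. The authors quantified transcripts with kallisto and deposited estimated counts per transcript for 36 libraries. The submitters' processing notes name hg19. The table held 161149 lines for 159837 transcripts, and 2491 lines belonged to transcripts listed more than once, of which the first line was used. Counts were summed per symbol to 27852 genes and rounded. Transcripts without a symbol (6878, with 0.526 to 0.764% of counts) counted towards library totals alone. TPM was computed with GENCODE 29 transcript lengths (95.4% of transcripts).

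Genes that reached 100 counts in 1 or more libraries of a fit were tested with edgeR 4.0.16 (R 4.3.3; TMM, quasi-likelihood, 1 mean per line and culture, Benjamini-Hochberg adjustment): 13437 genes in the 20 libraries of the MG63 comparison and the mono-cultures, 11525 in the 16 of the RAW264.7 comparison, and 13454 in all 36 for RANKL. The script was tested on simulated counts. Alternatives were DESeq2 1.42.0, other scalings, no filter, other libraries in the fit, scaled TPM, RANKL mono-cultures as control, leaving out each library, the replicate number as a block, and a call at over 2-fold with an unadjusted p under 0.05. Tables and figures were made with Python 3.11.15, numpy 2.4.6, pandas 2.3.3 and matplotlib 3.10.9. Promoters came from RefSeq (GRCh38.p14), where 8 of 10 members matched, BMP2 and BMP7 not being among them.

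The members, lists and tests were chosen with earlier results of these data known. All 10 members are named in every comparison in which they bear on the result, and from each other list the genes named come from the 2 with the largest absolute log2 fold change among those called in a comparison. The exons of a member overlapped another gene only for ID2 (ID2-AS1, opposite strand, not used here). A check of the lines against prostate marker genes is not reported here.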

Additional observations from a re-analysis of the deposited data

Results flagged for a closer look

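The response to a culture condition differed between lines or classes of lines, by the interaction test of edgeR, in these members. For MG63, DU145 minus 22Rv1 was 0.64 for ID1 (adjusted p = 0.0452) and −0.44 for ID3 (adjusted p = 0.0233). For RANKL, BPCa minus LPCa was −2.38 for BMP7 (adjusted p = 0.00551), 0.74 for BMPR1A (adjusted p = 0.000276), 0.94 for ID1 (adjusted p = 2.1e-05), 0.86 for ID2 (adjusted p = 4.12e-05) and 0.52 for ID3 (adjusted p = 0.000806). For RANKL, C4-2B minus C4-2 was −2.68 for BMP7 (adjusted p = 5.04e-08) and −0.59 for BMPR1B (adjusted p = 0.0443), and DU145 minus 22Rv1 was −1.22 for ID2 (adjusted p = 2.53e-05) and −0.81 for ID3 (adjusted p = 0.000175). With 1 library left out, the ID1 difference for MG63 was called in 5 of 20 fits (0.29 to 0.93, adjusted p up to 0.174), that of ID3 in 17 of 20, that of BMPR1B for RANKL in 7 of 20 (adjusted p up to 0.219) and that of BMP7 between classes in 19 of 20, while the other differences stayed called in all 20. With RAW264.7 no such difference was called. The value for BMP7 between classes comes from LPCa libraries of at most 10.6 counts and gives no reliable fold. Groups held 2 or 3 libraries, and single libraries were not tested as outliers. The 2 DU145 libraries with MG63 stood furthest apart of all replicates, with a mean chi-square per gene of 177.9 against at most 7.28 in the others.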

How the results depend on the processing

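Of 7 MG63 calls, counts were 11 with DESeq2, 8 with DESeq2-type size factors, 10 with library totals, 4 without a filter, 11 with all 36 libraries fitted, 3 with scaled TPM, 9 against mono-cultures with RANKL, 1 by the rule of the study, and 5 to 15 when 1 library was left out (15 and 14 without DU145 with MG63 replicate 1 and 2). The higher against lower split was 7 and 4 with DESeq2, 4 and 6 with library totals and 5 and 6 with all libraries. The cause was not tested, apart from scaled TPM, whose filter BMP2, BMPR2 and in 1 fit BMPR1B did not pass. With both DU145 libraries with MG63 left out, calls in the other lines were 12 against 4. RANKL calls were 17, with 12 to 20 under other settings, 13 to 18 with 1 library left out and 6 by the rule of the study. Calls between lines in mono-culture were 39, with 29 to 45. RAW264.7 calls were 0 throughout. The class difference for MG63 was called in 0 members, in 1 with DESeq2, 2 with RANKL mono-cultures as control and 0 to 3 with 1 library left out (3 without DU145 with MG63 replicate 1).

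Against mono-cultures with RANKL, MG63 changes took the opposite sign, with values of −1.98 (C4-2), −1.41 (DU145), −0.45 (BPCa) and −2.85 (LPCa) for BMP7, 0.72 (C4-2B) and 0.34 (BPCa) for BMPR1B, −0.55 (C4-2), −0.95 (C4-2B) and −0.75 (BPCa) for ID1, −0.82 (BPCa) for ID2, and −0.70 (C4-2B), −0.22 (22Rv1), −0.53 (BPCa), −0.011 (LPCa), −0.51 (BPCa minus LPCa) and 0.42 (DU145 minus 22Rv1) for ID3. ID2 for DU145 minus 22Rv1 with MG63 went from 0.01 to −0.41 without DU145 with MG63 replicate 1 and 0.33 without replicate 2. Single-library removal ended the C4-2 calls of BMPR1B (8 of 20 libraries) and ID1 (7 of 20) with MG63. Of 226 values of single members, 218 stayed on their side with DESeq2, 217 with library totals and 215 without a filter.

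Replicate numbers did not pair the libraries: correlations of deviations were −0.0755 to 0.0656. With the replicate block, counts of calls were 7 for MG63, 17 for RANKL, 38 between lines and 0 for RAW264.7 and for the class difference. Under the block the calls of BMPR1B and ID1 in C4-2 and ID3 in BPCa with MG63 were among the 6 lost, and ID2 in DU145 and 22Rv1 was gained. Depth limits BMP4, BMP6 and BMP7 outside C4-2 and C4-2B. Without the filter BMP6 with MG63 was called in the LPCa average (0.72 ± 0.22, adjusted p = 0.0282).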
